A study of Sus scrofa with 9 samples.

Results

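The genes described here are enzymes that make or remove reactive oxygen species, measured by RNA sequencing in the outflow veins of pig arteriovenous fistulas. Members were the rows of the deposited expression table whose gene name equals 1 of 10 listed symbols, NOX4, CYBB, CYBA, SOD1, SOD2, SOD3, HMOX1, NQO1, GPX3 and CAT. This gave 8 genes out of 30477 in the table; CYBB and HMOX1 have no row under those symbols. The table has a row named GP91-PHOX, a symbol for which RefSeq gives CYBB as a synonym (assembly Sscrofa11.1), and its values are given beside the 8 members as those of a gene found outside the rule. HMOX1 was not analysed here. All pigs, treated and control, had a chronic kidney disease model, followed after 28 days by surgery that connected the jugular vein to the carotid artery. In the MSC group (6 libraries), adipose-derived mesenchymal stem cells in Ringer lactate were layered on the outer wall of the outflow vein directly after surgery; veins of the control group (3 libraries) were untreated, with no vehicle named in the labels. The veins were taken after a further 28 days. Strain and age are not given in the labels. Unexplained tags stand in 2 library names, NT and F in that of control 2 and Allo and M in that of MSC 1. The labels do not tie each library to its own animal, and the p-values below therefore cover library-to-library spread, part of which may be technical.

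Superoxide is made by NADPH oxidases, membrane enzymes with a catalytic NOX subunit that in most forms needs the small partner protein encoded by CYBA. Superoxide dismutases turn superoxide into hydrogen peroxide, which catalase, glutathione peroxidases and peroxiredoxins remove. In the vessel wall, NOX4 is found mainly in smooth muscle, endothelium and fibroblasts, the CYBB product mainly in phagocytes, and extracellular superoxide dismutase is bound to the matrix between cells. NQO1, a quinone reductase, is a classical target of the stress-responsive transcription factor NRF2.

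Levels are RPKM, read numbers divided by gene length and library depth, scaled between libraries by trimmed mean of M-values factors. Recovered read totals ran from 16939157 in MSC 2 to 47417606 in MSC 5, and the members had between 49 reads (CYBA in MSC 2) and 5254 reads (CAT in control 1) in a library. The share of small RNA genes in the reads was 53.3% for MSC 6, 40.4% for control 2 and at most 16.4% elsewhere. Flow-cell lane 7 held MSC 2, MSC 5 and MSC 6 and no control. Lane 5 held control 1, control 2 and MSC 1, and lane 6 held control 3, MSC 3 and MSC 4. A difference within lane 5 thus rests on 1 MSC library and a difference within lane 6 on 1 control, and neither has an error estimate. The Y-linked genes EIF1AY and KDM5D together had 1 read in control 1, 0 reads in control 2, control 3 and MSC 3, and between 571 and 5640 reads in each of the other 5 MSC libraries, so treatment and Y-linked reads coincide in 8 of 9 libraries and cannot be told apart there. Markers of a vein wall were present in every library: the 7 smooth muscle markers summed to between 382 and 492 scaled RPKM in controls and between 159 (MSC 3) and 5280 (MSC 5) in MSC veins, and the 7 endothelial markers to between 34.3 and 120 in all libraries. The 10 macrophage markers summed to between 214 and 295 in controls and between 157 (MSC 2) and 618 (MSC 3) in MSC veins. Of the 7 neutrophil markers 5 had a row, and 2 passed the filter on low values. MPO and ELANE were at 0 in at least 1 library, while CSF3R, S100A8 and S100A12 were above 0 in all. The neutrophil markers summed to between 0.627 (MSC 1) and 9.13 (control 1) scaled RPKM. In whole tissue, fewer cells of a type and less RNA per cell cannot be told apart.

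No member separated treated from untreated veins. By limma-trend on log2(scaled RPKM + 1), 0 of the 8 members passed an adjusted p of 0.05 in either direction, where 0% of the 17884 genes tested did, and 0 members had an unadjusted p under 0.05, where 4.08% of genes did (1.90% higher and 2.18% lower). limma-voom on the recovered reads also called 0 members, with 0 at an unadjusted p under 0.05. In 0 of 8 members did the 2 groups not overlap, against 3.94% of all genes (1.97% with MSC above and 1.97% below). Of the members, 7 had a log2 fold change above 0 and 1, SOD2, below 0; among all genes 55.3% were above 0. The median over members was 0.30, beside 0.04 over all genes tested. All 8 members passed the filter on low values.

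**Figure D1:**
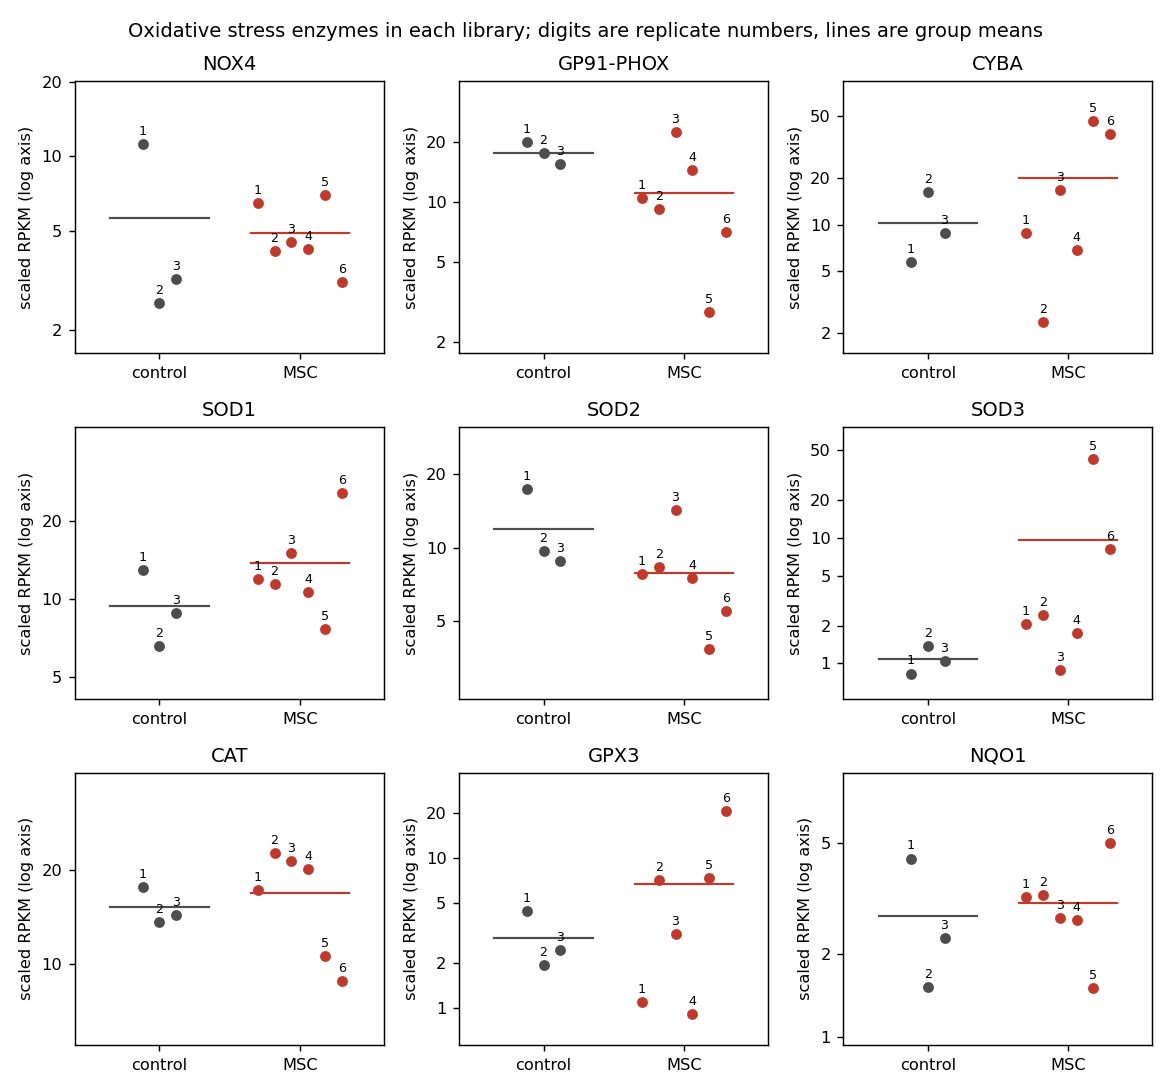
Level of each enzyme gene in every library, in scaled RPKM on a log axis, for 3 control (grey) and 6 MSC (red) libraries; digits are replicate numbers and horizontal lines are arithmetic group means. MSC 5 and MSC 6 lie at an end of the range in several panels: SOD3 was at 42.7 in MSC 5 and 8.18 in MSC 6, against 0.829 to 2.43 in the other 7 libraries.

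Among the NADPH oxidase genes, NOX4, whose product is constitutively active and releases mainly hydrogen peroxide, was measured at 11.2 scaled RPKM in control 1, 2.57 in control 2 and 3.21 in control 3. The 6 MSC libraries lay between 3.12 (MSC 6) and 6.97 (MSC 5), with a median of 4.37. All 6 MSC values lay within the span of the controls, whose upper end was control 1 and whose lower end was control 2. The gene (ENSSSCG00000014927, chromosome 9, 22624195 to 22776554 as the table gives it) had a control mean of 5.65 ± 4.79 (SD, n = 3), or 2.89 without control 1, and an MSC mean of 4.91 ± 1.49 (SD, n = 6). Its log2 fold change was 0.02 ± 0.40 (SE; 95% interval −0.87 to 0.91; limma adjusted p = 0.992). The sign of this difference was negative with no scaling, with upper quartile scaling and with scaling from protein-coding genes, and the difference was 0.18 within lane 5 and 0.35 within lane 6.

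GP91-PHOX, the catalytic subunit of the phagocyte oxidase (ENSSSCG00000036246, chromosome X, 33642015 to 33680580), was at 20, 17.6 and 15.5 scaled RPKM in controls 1, 2 and 3. In MSC veins it ran from 2.81 (MSC 5) to 22.4 (MSC 3) with a median of 9.91. Of the 6 MSC libraries, 5 lay below every control and MSC 3, the only MSC library with 0 Y-linked reads, lay above every control. The means were 17.7 ± 2.27 (SD, n = 3) and 11.1 ± 6.76 (SD, n = 6), a log2 fold change of −0.83 ± 0.49 (SE; 95% interval −1.91 to 0.26; limma adjusted p = 0.920). In lane 5 the difference was −0.78 and in lane 6, which holds MSC 3, 0.21. MSC 3 also held the highest summed macrophage markers (618), with 9 of 10 markers above every control. MSC 6 had the second highest sum (342) with GP91-PHOX at 7.09, and there the markers were divided: 5 of 10, C1QA and C1QB among them, lay above every control, and 5, CD68, CD163, MRC1, ITGAM and LYZ, lay below. The part of macrophage content in these values was not tested.

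CYBA, the membrane partner of both catalytic subunits (ENSSSCG00000031493, chromosome 6, 1015154 to 1021418), was at 5.72, 16.3 and 8.82 scaled RPKM in the 3 controls. The MSC libraries ran from 2.37 (MSC 2) to 46.9 (MSC 5), with a median of 12.9, and MSC 6 was at 38.3. The means were 10.3 ± 5.46 (SD, n = 3) and 20 ± 18.3 (SD, n = 6). The treated veins spread over both sides of the controls: 3 of 6 lay above every control and 1 below. The log2 fold change was 0.46 ± 0.78 (SE; 95% interval −1.26 to 2.18; limma adjusted p = 0.920), and it was −0.37 without MSC 5 and MSC 6. CYBA overlaps IL17C in the table, so its reads may be shared.

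The balance between the subunits of the phagocyte oxidase differed widely between libraries. The ratio of CYBA to GP91-PHOX, per length, lay between 0.255 and 0.929 in 7 libraries, and was 16.7 in MSC 5 and 5.40 in MSC 6. The log2 ratio of NOX4 to GP91-PHOX (0.1 RPKM added to each) was −0.84, −2.71 and −2.24 in the controls, and between −2.30 (MSC 3) and 1.27 (MSC 5) in MSC veins. The phagocyte subunit was therefore the higher of the 2 catalytic transcripts in all libraries except MSC 5. The group means of the log2 ratio were −1.93 ± 0.975 (SD, n = 3) and −0.958 ± 1.23 (SD, n = 6), with an exact two-sided permutation p of 0.286 over 84 splits, of which the smallest possible is 0.0119.

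SOD1, the cytosolic copper and zinc enzyme (ENSSSCG00000021355, chromosome 13, 195326649 to 195337749), was at 12.9, 6.55 and 8.80 scaled RPKM in controls 1, 2 and 3. MSC libraries ran from 7.63 (MSC 5) to 25.8 (MSC 6), with a median of 11.7. The groups overlapped, with 5 of 6 MSC libraries above the control mean of 9.41 ± 3.22 (SD, n = 3); the MSC mean was 13.8 ± 6.38 (SD, n = 6). The log2 fold change was 0.45 ± 0.37 (SE; 95% interval −0.37 to 1.27; limma adjusted p = 0.920), 0.34 within lane 5 and 0.48 within lane 6. SOD1 overlaps SCAF4 in the table and may share reads with it. Before scaling, SOD1 in MSC 6 was at 10.5 RPKM, below MSC 1 to MSC 4 (13.4 to 17.2). The 5 erythroid markers with a row summed to at most 38.7 scaled RPKM in controls. Their sums were highest in MSC 6 (544) and MSC 3 (429), with HBB making up most. SOD1 was also highest in these libraries, at 15.1 in MSC 3. The part of red cell content in the SOD1 values was not tested.

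SOD2, the manganese enzyme of mitochondria (ENSSSCG00000040317, chromosome 1, 7651280 to 7691723), was at 17.3, 9.73 and 8.84 scaled RPKM in controls. In MSC veins it ran from 3.85 (MSC 5) to 14.2 (MSC 3), with a median of 7.66. In 5 of 6 MSC libraries SOD2 lay below every control, and only MSC 3 was in their range. MSC 3 was also the only MSC library with 0 Y-linked reads, and the part of this in the SOD2 values was not tested. The means were 12 ± 4.65 (SD, n = 3) and 7.87 ± 3.51 (SD, n = 6), a log2 fold change of −0.58 ± 0.37 (SE; 95% interval −1.40 to 0.25; limma adjusted p = 0.920). The difference was −0.67 in lane 5 and 0.21 in lane 6. SOD2 overlaps WTAP.

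SOD3, the secreted enzyme that binds the extracellular matrix (ENSSSCG00000028814, chromosome 8, 18796636 to 18802154), was the lowest of the enzymes in all 3 controls, at 0.829, 1.38 and 1.04 scaled RPKM. MSC libraries ran from 0.891 (MSC 3) to 42.7 (MSC 5), with a median of 2.24. Of 6 MSC libraries 5 exceeded every control, but the size of the difference came from MSC 5: the MSC mean was 9.67 ± 16.4 (SD, n = 6) with it and 3.06 without it. MSC 3, which did not exceed the controls, was the only MSC library with 0 Y-linked reads. The log2 fold change was 1.35 ± 0.85 (SE; 95% interval −0.53 to 3.23; limma adjusted p = 0.920), 0.40 without MSC 5 and MSC 6, and 0.29 in lanes 5 and 6 only. MSC 5 and MSC 6 also had the highest summed smooth muscle markers (5280 and 4770, the others at most 1730) and each of the 7 markers had its 2 highest values there. The summed fibroblast markers were highest in MSC 5 (38300, the others at most 14100), but COL1A1 (23200) and COL1A2 (14600) made up most of that sum. With PI16 these were at their highest of all libraries in MSC 5, while the other 4 of 7, PDGFRA, DCN, LUM and DPT, were at their lowest. The part of these cell types in the SOD3 level was not tested.

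Within each library, the 3 dismutases can be set side by side per length. SOD2 made up 55.8%, 55.1% and 47.3% of the summed SOD RPKM in the controls, and between 7.11% (MSC 5) and 46.9% (MSC 3) in MSC veins. Every MSC library was thus below every control, although MSC 3 and control 3 differed by less than 1 percentage point. The means were 52.7% ± 4.69 (SD, n = 3) and 29.9% ± 15.6 (SD, n = 6), a difference of −22.8 percentage points, lower in 6 of 6 MSC libraries. The exact two-sided permutation p was 0.0476, and 0.143 after adjustment over the 3 shares, so the difference did not pass. The shares of SOD1 (41.9% ± 5.03 and 48.2% ± 17.6, exact permutation p = 0.607, adjusted 0.607) and SOD3 (5.35% ± 2.58 and 21.9% ± 28.5, exact permutation p = 0.393, adjusted 0.589) overlapped between the groups. In each, 5 of 6 MSC libraries lay above every control. The overlap came from MSC 5 for SOD1 (14.1%, below every control) and from MSC 3 for SOD3 (2.95%).

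The SOD2 share also depends on SOD3, which took 78.8% of the sum in MSC 5 and 20.7% in MSC 6. The ratio of SOD2 to SOD1, which leaves SOD3 out, was picked after the shares were seen and is given as values with no test. It was 1.34, 1.49 and 1.0 in controls 1, 2 and 3, and 0.654, 0.733, 0.937, 0.708, 0.505 and 0.214 in MSC 1 to MSC 6. SOD2 was at or above SOD1 in all 3 controls and below it in all 6 MSC libraries. Without MSC 5 and MSC 6 the difference in the SOD2 share was −13.2 percentage points, and in lanes 5 and 6 only −12.5. The ratio and the shares rest on gene lengths and counting as the authors set them, with SOD1 and SOD2 both overlapping another gene.

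**Figure D2:**
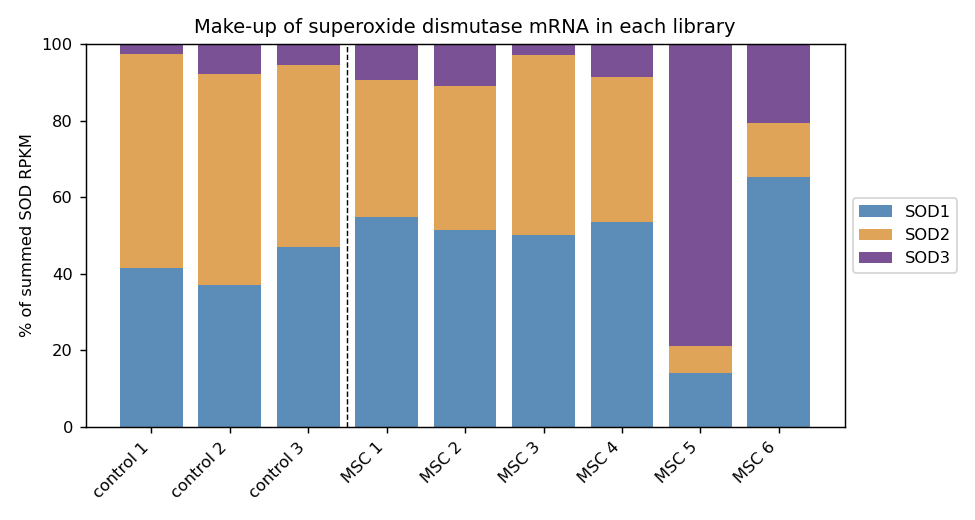
Share of SOD1, SOD2 and SOD3 in the summed SOD RPKM of each library, in percent; the dashed line separates the 3 control from the 6 MSC libraries. SOD2 took 47.3% to 55.8% in controls and 7.11% to 46.9% in MSC veins, and SOD3 reached 78.8% in MSC 5.

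CAT, catalase, which breaks down hydrogen peroxide in peroxisomes (ENSSSCG00000013302, chromosome 2, 26487653 to 26581452), was at 17.6, 13.6 and 14.4 scaled RPKM in controls. The MSC libraries ran from 8.85 (MSC 6) to 22.7 (MSC 2), with a median of 18.7. They lay on both sides of the controls: MSC 2, MSC 3 and MSC 4 lay above all of them, and MSC 5 and MSC 6 below. The means were 15.2 ± 2.08 (SD, n = 3) and 16.8 ± 5.8 (SD, n = 6). The log2 fold change was 0.07 ± 0.34 (SE; 95% interval −0.69 to 0.83; limma adjusted p = 0.960), and it was −0.08 with no scaling. Without MSC 5 and MSC 6 it was 0.38, with an adjusted p of 0.635 from limma. CAT overlaps ABTB2 and a gene without a symbol.

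GPX3, the secreted glutathione peroxidase of plasma (ENSSSCG00000036438, chromosome 16, 71980475 to 71989026), was at 4.45, 1.94 and 2.43 scaled RPKM in controls, and between 0.904 (MSC 4) and 20.8 (MSC 6) in MSC veins, with a median of 5.13. MSC 2, MSC 5 and MSC 6, the libraries of lane 7, lay above every control, and MSC 1 and MSC 4 below. Its MSC mean was 6.75 ± 7.46 (SD, n = 6) and 3.93 without MSC 6, beside a control mean of 2.94 ± 1.33 (SD, n = 3). The log2 fold change was 0.50 ± 0.71 (SE; 95% interval −1.07 to 2.07; limma adjusted p = 0.920), and −0.61 in lanes 5 and 6 only, where both groups were sequenced. For this gene the sign thus turned with the lanes used, and lane and library cannot be told apart. Before scaling, GPX3 was higher in MSC 2 (10.1 RPKM) than in MSC 6 (8.48). The summed adipocyte markers were highest in MSC 2 (81.3 scaled RPKM) and control 1 (69.9), where GPX3 was at 7.15 and 4.45. They were at 24.5 in MSC 6 and 11.9 in MSC 5, where GPX3 was higher. The part of fat content in the GPX3 values was not tested.

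NQO1 (ENSSSCG00000002754, chromosome 6, 17292769 to 17302590) was at 4.41, 1.52 and 2.27 scaled RPKM in controls, and between 1.5 (MSC 5) and 5.0 (MSC 6) in MSC veins, with a median of 2.95. The top place of MSC 6 rests on its scaling factor of 0.407. Before scaling, NQO1 was at 2.03 RPKM there, below MSC 1 to MSC 4 (3.06 to 4.58). In scaled RPKM the groups covered nearly the same range, with means of 2.73 ± 1.5 (SD, n = 3) and 3.05 ± 1.14 (SD, n = 6). The log2 fold change was 0.14 ± 0.33 (SE; 95% interval −0.60 to 0.88; limma adjusted p = 0.926), 0.19 in lane 5 and 0.17 in lane 6, and −0.02 with no scaling.

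**Figure D3:**
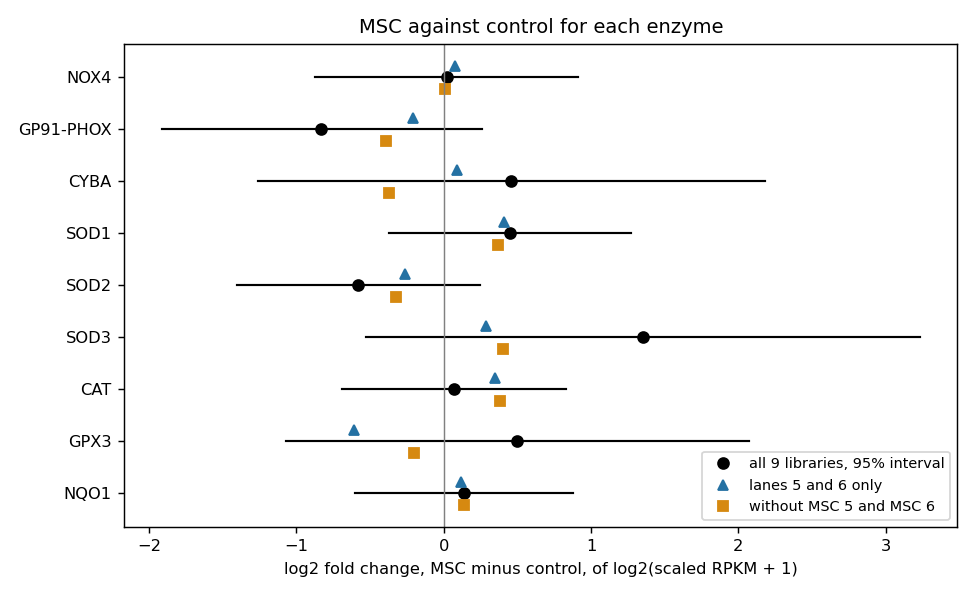
Log2 fold change of each enzyme gene, MSC minus control, with the 95% interval from limma over all 9 libraries (black), in lanes 5 and 6 only (blue triangles) and without MSC 5 and MSC 6 (orange squares). Every interval includes 0, and the value of SOD3 moved from 1.35 to 0.40 and that of CYBA from 0.46 to −0.37 without MSC 5 and MSC 6.

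Ordered by their median level over the 9 libraries, the genes ran from CAT (17.3 scaled RPKM) through GP91-PHOX (14.5), SOD1 (11.4), CYBA (8.90), SOD2 (8.35), NOX4 (4.23), GPX3 (3.11) and NQO1 (2.69) to SOD3 (1.73). Neighbours among the upper 5 did not differ beyond their spread, since each gene exceeded the next in 4 or 5 of 9 libraries. Further apart in that order, CAT exceeded SOD2 in 9 of 9 libraries and SOD1 in 8 of 9. Of the steps between neighbours, that from SOD2 to NOX4 held in the most libraries, 8 of 9. The genes differed far more in how much they varied: highest and lowest library differed 51.5-fold for SOD3, 23.1-fold for GPX3 and 19.8-fold for CYBA, against 2.57-fold for CAT and 3.33-fold for NQO1. In MSC 5 the order was different, with CYBA first, SOD3 second and GP91-PHOX eighth of the 9 genes.

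These departures went with gene length in some libraries. Of the 8 members, 4 (CYBA, SOD3, NQO1 and GPX3) have a listed length under 2 kilobases, and all 4 were above their own mean over libraries in MSC 6, while the 3 members over 4 kilobases (NOX4, SOD2 and CAT) were below theirs. In MSC 5, 3 of the 4 short members were above and 2 of the 3 long ones below. Over 14584 protein-coding genes, the Spearman correlation between listed length and the deviation from the gene's mean was −0.30 in MSC 6 and −0.10 in MSC 5, and between −0.03 and 0.24 in the other 7 libraries; genes are not independent replicates. The median deviation of genes under 2 kilobases was 0.47 on the log2 scale in MSC 6 and 0.13 in MSC 5. The part of length in the members' values, and in those of the further redox genes below, was not tested.

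Across the 9 libraries, 4 of the 36 pairs among the 8 members and GP91-PHOX varied together past a Benjamini-Hochberg adjusted p of 0.05, by both Pearson's r and Spearman's rho with exact permutation tests. The share of pairs that would pass among all genes was not computed. The libraries also differ in depth and make-up, which all genes share. The p-values below therefore do not show a link particular to these enzymes. SOD3 and GP91-PHOX were opposed, with r of −0.96 (exact permutation p = 3.86e-05, adjusted p = 0.00139) and rho of −0.97 (exact permutation p = 0.000165, adjusted p = 0.00594). SOD2 went with GP91-PHOX, with r of 0.90 (exact permutation p = 0.000309, adjusted p = 0.00433) and rho of 0.92 (exact permutation p = 0.00131, adjusted p = 0.0157). SOD2 and SOD3 were opposed, with r of −0.85 (exact permutation p = 0.000361, adjusted p = 0.00433) and rho of −0.92 (exact permutation p = 0.00131, adjusted p = 0.0157). Libraries with more GP91-PHOX thus had more of the mitochondrial and less of the extracellular dismutase. CYBA, the partner subunit, had the opposite signs (r of −0.54 with SOD2 and 0.69 with SOD3), and neither value passed after adjustment. Without MSC 5 and MSC 6 these values were 0.21 and −0.53, so both signs rested on those libraries. SOD1 and NQO1 went together, with r of 0.87 (exact permutation p = 0.00181, adjusted p = 0.0163) and rho of 0.87 (exact permutation p = 0.00451, adjusted p = 0.0406).

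The 4 relations kept their sign without the 2 libraries farthest from the median of the first-named gene: r was −0.93 for SOD3 and GP91-PHOX without MSC 5 and MSC 6, 0.88 for SOD2 and GP91-PHOX and −0.82 for SOD2 and SOD3 without control 1 and MSC 5, and 0.74 for SOD1 and NQO1 without control 2 and MSC 6. Within the 6 MSC libraries the same 4 values were −0.95, 0.94, −0.90 and 0.89. GP91-PHOX, SOD2 and SOD3 also divided by Y-linked reads, of which the controls and MSC 3 had at most 1. In those libraries GP91-PHOX was at least 15.5, SOD2 at least 8.84 and SOD3 at most 1.38 scaled RPKM. In the other MSC libraries GP91-PHOX was at most 14.5, SOD2 at most 8.35 and SOD3 at least 1.73. The part of this division in the relations was not tested. The smooth muscle markers were at their extremes in MSC 3, MSC 5 and MSC 6. All 7 were at their lowest in MSC 3, where GP91-PHOX was highest, and their sums were highest in MSC 5 and MSC 6 (5280 and 4770 scaled RPKM), where GP91-PHOX was lowest and SOD3 highest. Their part in these relations was not tested. Each lane holds only 3 libraries, too few for a value within a lane. The other 32 pairs did not pass. CYBA and CAT came nearest (r of −0.82, exact permutation p = 0.00715, adjusted p = 0.0515), and their r was −0.49 without MSC 5 and MSC 6. CYBA and GP91-PHOX had an r of −0.51 (exact permutation p = 0.164, adjusted p = 0.394) that was 0.66 without MSC 5 and MSC 6, so its sign rested on those libraries.

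**Figure D4:**
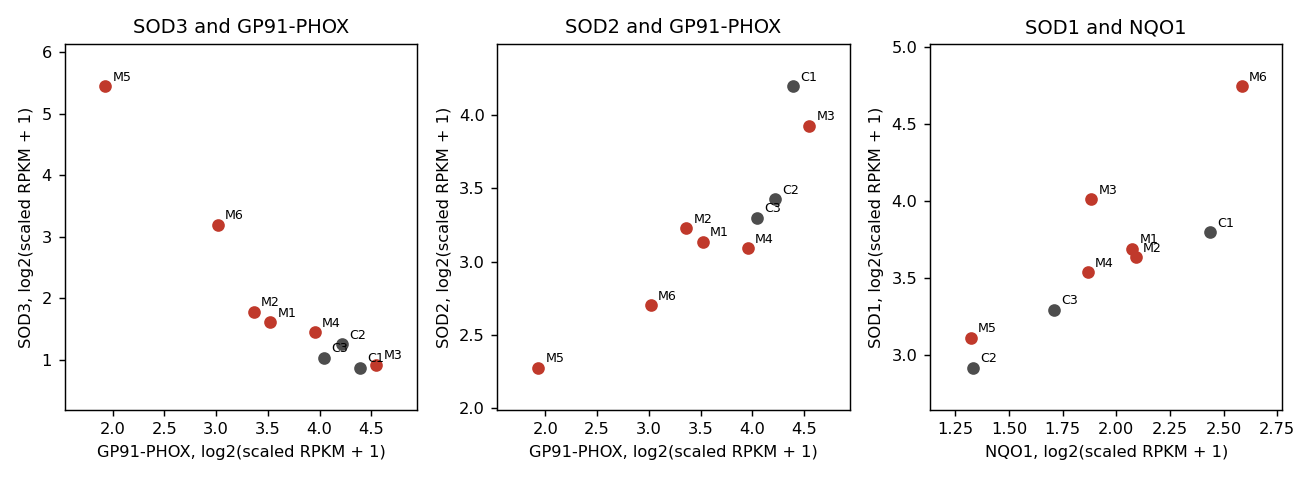
Log2(scaled RPKM + 1) of SOD3 and of SOD2 against GP91-PHOX, and of SOD1 against NQO1, 1 point per library (C, control, grey; M, MSC, red; digits are replicate numbers). SOD3 went down with GP91-PHOX (r of −0.96), SOD2 went up with it (r of 0.90), and SOD1 went up with NQO1 (r of 0.87).

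The genes whose levels over the 9 libraries were most like each enzyme were taken from 11484 protein-coding candidates by Pearson's r, as a description over points that share depth and library make-up. The nearest to GP91-PHOX were NPL (r of 0.989) and ATP8A1 (0.989), and to CYBA ARPC1B (0.981), a subunit of the actin-branching complex, and FERMT3 (0.979), the integrin activator of blood cells. SOD3 was nearest to ZNF423 (0.996), a zinc finger transcription factor, and CACNA1H (0.995), a calcium channel subunit. SOD2 was nearest to TPD52 (0.968) and ATRNL1 (0.967), SOD1 to PRKAG1 (0.970), a subunit of the energy-sensing kinase AMPK, and CIART (0.966), and CAT to RNF20 (0.985), a histone ubiquitin ligase, and BMS1 (0.980). NOX4, GPX3 and NQO1 had looser neighbours, MAL (0.896) and SELP (0.853) for NOX4, GREB1 (0.910) and PDLIM3 (0.899) for GPX3, and GKAP1 (0.915) and TBRG1 (0.895) for NQO1.

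Beyond the members, 127 further redox genes stood on 9 lists; 111 had a row and 101 passed the filter. Of these 101, limma-trend called 0 higher and 0 lower, with 6 at an unadjusted p under 0.05 (4.08% of all genes had one), and limma-voom called 0, with 7 at an unadjusted p under 0.05. The groups did not overlap in 6 genes with MSC above (1.97% of all genes) and 1 with MSC below (1.97%). The genes with MSC above every control were DUOXA2, DUOX1, NOX5, PTGS1, MAFK and SLC39A14, and the gene below was GCLC. The median log2 fold change was 0.14, beside 0.04 over all genes.

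Other NADPH oxidase genes held the smallest p-values. Of 13 tested on that list, 0 were called, 11 had a fold change above 0, and the median was 0.18. DUOX1 and DUOX2 encode dual oxidases, which release hydrogen peroxide outside the cell, and DUOXA2 a maturation factor that DUOX2 needs to reach the surface. DUOXA2 was at 0.849, 0.594 and 1.07 scaled RPKM in controls and between 1.55 (MSC 1) and 3.32 (MSC 4) in MSC veins, above every control in 6 of 6, with a log2 fold change of 0.97 ± 0.24 (SE; limma adjusted p = 0.509). DUOX1 was at 0.839, 0.641 and 1.11 in controls and between 1.27 (MSC 1) and 3.27 (MSC 5) in MSC veins (log2 fold change of 0.85 ± 0.25 (SE); limma adjusted p = 0.698), and DUOX2 averaged 2.96 ± 1.88 (SD, n = 3) and 7.14 ± 2.99 (SD, n = 6). All 3 lie in 1 stretch of chromosome 1 (126572492 to 126652463) where the listed span of DUOXA2 covers DUOX2 and DUOXA1 and most of DUOX1, so their reads may be shared and they do not count as 3 separate genes. NOX5, a calcium-activated oxidase named here after its values were seen, was at 0.0707, 0.0160 and 0.0914 scaled RPKM in controls and between 0.220 (MSC 4) and 2.28 (MSC 2) in MSC veins (limma adjusted p = 0.920).

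Other oxidant sources had a median of 0.32, with 0 of 11 called. PTGS1, the constitutive cyclooxygenase, was at 3.21, 3.27 and 3.54 scaled RPKM in controls and between 4.70 (MSC 1) and 10.5 (MSC 5) in MSC veins, above every control in 6 of 6 (log2 fold change of 0.74 ± 0.27 (SE); limma adjusted p = 0.920). PTGS2, the inducible cyclooxygenase, was at 1.45, 0.903 and 1.25 in controls and between 0.438 (MSC 5) and 14.7 (MSC 4) in MSC veins, with 5 of 6 above every control and MSC 5 below. Its log2 fold change was 1.30 ± 0.68 (SE; limma adjusted p = 0.920) with all libraries and 2.44 in lanes 5 and 6 only, with an adjusted p of 0.0516 from limma. NOS1, the neuronal nitric oxide synthase, averaged 0.114 ± 0.0931 (SD, n = 3) and 0.609 ± 0.437 (SD, n = 6) scaled RPKM, with overlapping groups; the NOS1 control mean was 0.0606 without control 1.

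Among enzymes of peroxide removal (0 of 10 called, median of 0.09), GPX4, which reduces lipid peroxides, had a control mean of 22.4 ± 5.48 scaled RPKM (SD, n = 3) and an MSC mean of 44.8 ± 39.8 (SD, n = 6), with 125 in MSC 6 and a mean of 28.8 without it. In this and the following lists, paired values are control and MSC means with their SD. PRDX6 was at 21.0 ± 2.66 and 16.9 ± 2.84, and PRDX2 at 17.2 ± 3.24 and 25.6 ± 13.8. On the glutathione list (0 of 13 called, median of 0.02), GCLC, the catalytic subunit of the rate-limiting enzyme of glutathione synthesis, was at 6.91, 4.38 and 4.49 scaled RPKM in controls and between 1.71 (MSC 5 and MSC 6) and 4.06 (MSC 4) in MSC veins, below every control in 6 of 6. Its log2 fold change was −0.68 ± 0.30 (SE; limma adjusted p = 0.920). SLC7A11, the cystine importer that feeds the same pathway, was at 1.13 ± 0.327 and 0.641 ± 0.248, with 5 of 6 MSC libraries below every control, and GSTO1 at 9.52 ± 1.11 and 16.0 ± 8.09.

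The thioredoxin list had a median of 0.11 with 0 of 12 called. SRXN1, which restores overoxidised peroxiredoxins, was at 5.62 ± 0.947 scaled RPKM (SD, n = 3) and 3.53 ± 1.29 (SD, n = 6), SESN3 at 52.8 ± 5.82 and 36.1 ± 15.7, and TXNIP, the thioredoxin inhibitor, at 166 ± 23.5 and 114 ± 51.7. Of these, 5 of 6 MSC libraries lay below every control for SRXN1 and SESN3 and 4 of 6 for TXNIP. The list of NRF2 control and targets had a median of 0.26 with 0 of 20 called. NFE2L2, which encodes NRF2, had a log2 fold change of 0.01 and KEAP1, its inhibitor, 0.18. MAFK, a small partner protein of NRF2, was at 0.153, 0.247 and 0.291 scaled RPKM in controls and between 0.311 (MSC 3) and 6.14 (MSC 5) in MSC veins (limma adjusted p = 0.920), MAFF was at 1.2 ± 0.386 and 1.99 ± 0.729, and CUL3, the scaffold of the ligase that degrades NRF2, at 12.4 ± 1.12 and 8.13 ± 4.14.

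Haem and iron genes had a median of −0.07 with 0 of 10 called. SLC40A1, the iron exporter of macrophages, was at 61.9, 52.1 and 33.4 scaled RPKM in controls and between 7.60 (MSC 5) and 42.6 (MSC 1) in MSC veins (log2 fold change of −1.08 ± 0.53 (SE); limma adjusted p = 0.920). SLC11A1, a metal transporter of phagosomes, was at 2.73 ± 0.746 and 1.37 ± 1.02, with 5 of 6 MSC libraries below every control and MSC 3 at 3.33, and BLVRA, biliverdin reductase, at 3.53 ± 0.922 and 4.92 ± 2.04. As with GP91-PHOX, the MSC library in or above the control range for SLC11A1 was MSC 3. That library had the highest summed macrophage markers, the lowest summed smooth muscle markers (159) and 0 Y-linked reads. SLC40A1 was at 33.1 in MSC 3, below every control. The part of macrophage content in the values of these genes was not tested.

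Genes that supply metals to the dismutases had a median of 0.41 with 0 of 6 called. CCS, the chaperone that loads copper into SOD1, was at 0.905, 1.62 and 0.904 scaled RPKM in controls and between 1.40 (MSC 2) and 7.18 (MSC 5) in MSC veins. SLC39A14, a transporter of zinc, iron and manganese, was at 7.08 ± 0.792 (SD, n = 3) and 10.7 ± 2.23 (SD, n = 6), above every control in 6 of 6 (log2 fold change of 0.51 ± 0.25 (SE); limma adjusted p = 0.920). CCS, like MAFF, PRDX2 and ATP7A, overlaps another gene in the table. ATP7A, the copper pump that delivers copper to SOD3, was at 7.82 ± 0.606 and 5.44 ± 3.03, with 1.07 in MSC 5, the library with the highest SOD3. The selenium list had a median of 0.01 with 0 of 6 called; SELENOP, the plasma carrier of selenium, was at 262 ± 69.5 and 261 ± 192, SELENOW at 58.6 ± 15.9 and 167 ± 205, and SELENOM at 32.6 ± 22 and 91.6 ± 117. MSC 6 held 585 for SELENOW and 302 for SELENOM, and without it their MSC means were 83.8 and 49.5. The SELENOM control mean was 21.5 without control 2.

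**Figure D5:**
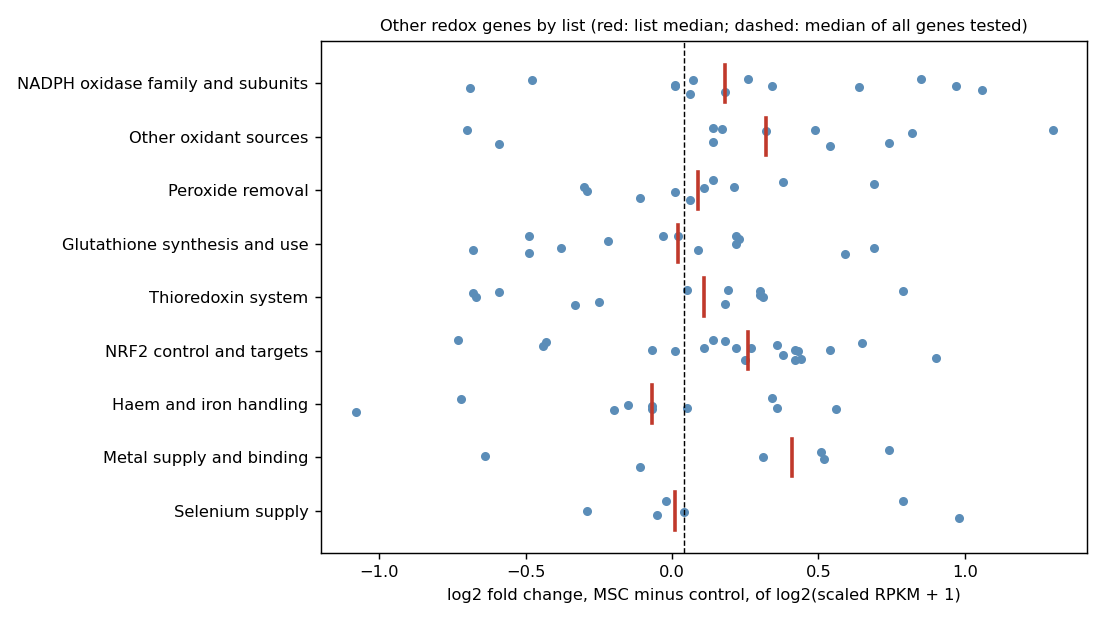
Log2 fold change, MSC minus control, of 101 further redox genes on 9 lists (1 point per gene, vertical jitter only); red bars are list medians and the dashed line is the median of all genes tested (0.04). List medians ran from −0.07 for haem and iron handling to 0.41 for metal supply and binding, and no gene passed an adjusted p of 0.05.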

How the data were processed

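The deposited table holds RPKM per gene and library, computed by the authors, per the file headers (1 column per library, 0 columns left unused). Aligner and counting tool: not given in the sources used here. Coordinates are printed as deposited, since the builds in the submitters' processing notes, susScr11 and mm10, have no stated role. Per the labels' protocols, a TruSeq kit was used on 0.5 µg of total RNA. Each value times gene length plus 1 was a whole multiple of 1 step per library, within a tolerance of 0.01 (largest deviation 3.38e-07), which gave read numbers back. For a length of 2 kilobases, 1 read equalled 0.0105 RPKM (MSC 5) to 0.0295 RPKM (MSC 2). Symbols came from the table, and 785 of 14012 unnamed genes took one from a gene name table.

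The filter kept 17884 genes with 15 or more reads in all and, in 3 or more libraries, 10 or more reads after scaling to median depth. RPKM was divided by trimmed mean of M-values factors (trims 0.3 and 0.05; 0.407 in MSC 6 to 1.44 in control 1), and log2(value + 1) was fitted with limma-trend (limma 3.58.1, R 4.3.3), all 9 libraries and no covariate, with Benjamini-Hochberg adjustment over all genes; fold changes on this scale understate those of low genes. The fit was also run on simulated counts without lane, length or small RNA differences between libraries. That run does not show what size of change could be found here. Shares and the NOX4 ratio, planned with CYBB and computed with GP91-PHOX, used exact permutation tests. Named pathway genes are the 3 of smallest p on each list, plus NOX5; each enzyme's nearest genes are the 2 of highest r with a mean of at least 50 reads. The members and lists were chosen with earlier results of these data known. Same-numbered libraries did not deviate together (r of 0.217, −0.523 and −0.141 for numbers 1, 2 and 3), so the numbers were not taken as pairs.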

Additional observations from a re-analysis of the deposited data

Results flagged for a closer look

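In the 6 MSC libraries, 51 values were tested for 1 library far from the other 5, and 6 met the criterion, where chance gives about 2.55; the 3 controls are too few to test. MSC 5 stood below the others in its share of SOD1 among the dismutases (14.08%, the next at 50.11%) and above them in its share of SOD3 (78.81%, the next at 20.7%). MSC 5 also stood above in its summed fibroblast markers (15.23 on the log2 scale, the next at 13.78), a sum made up mostly of COL1A1 and COL1A2, while 4 of the 7 markers were at their lowest of all libraries there. MSC 6 stood above in GSTO1 (5.04 on the log2 scale, the next at 4.02) and in SELENOW (9.20, the next at 6.83). That library also had the largest share of small RNA reads (53.3%) and the strongest length trend (Spearman correlation of −0.30), whose part was not tested. MSC 2 stood above in NOX5 (1.71 on the log2 scale, the next at 0.76).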

How the results depend on the processing

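None of the 8 members and none of the redox genes on the 9 lists passed an adjusted p of 0.05 from limma in any of the 23 alternatives, namely 2 pseudocounts, 4 scalings, 2 filters, limma-voom, a lane term, a replicate term, 3 smaller sets of libraries and each library left out. Leaving out MSC 5 and MSC 6 was chosen after seeing the data. Lane 7 held no control, so with a lane term the difference rests on lanes 5 and 6. That setting and lanes 5 and 6 only are nearly the same comparison. The replicate term rests on numbers 1, 2 and 3, since MSC 4, MSC 5 and MSC 6 have no control of the same number. The numbers were not taken as pairs, so this setting does not check the result over all 9 libraries. With the replicate block, 0 genes were called higher and 0 lower, as without it. There CYBA was at −0.31, PRDX2 at −0.08, SELENOM at −0.25 and SELENOP at 0.13, all of the opposite sign. Over all genes, 5 were called higher and 2 lower in lanes 5 and 6 only; leaving out 1 library gave 0 to 1 higher and 0 to 21 lower, the latter without control 1.

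SOD1, SOD2, SOD3 and GP91-PHOX kept the sign of their log2 fold change in all 23 alternatives, in ranges of 0.24 to 0.68, −0.78 to −0.21, 0.29 to 1.79 and −1.06 to −0.21. NOX4 turned to −0.13 with no scaling, −0.01 with upper quartile scaling, −0.02 with scaling from protein-coding genes, −0.09 with no filter and −0.39 without control 2 and MSC 1; leaving out 1 library gave −0.32 to 0.57. CAT turned to −0.08 with no scaling, −0.06 with no filter and −0.02 without control 2 and MSC 1, and ran from −0.03 to 0.23 with 1 library left out. NQO1 turned to −0.02 with no scaling and −0.12 without control 2 and MSC 1 (−0.10 to 0.45 with 1 left out). GPX3 turned to −0.61 with lane in the model and in lanes 5 and 6 only, and to −0.20 without MSC 5 and MSC 6. Without those libraries CYBA was at −0.37, PRDX2 at −0.05, SELENOM at −0.33 and SELENOP at 0.13. SELENOM was at −0.20 and SELENOP at 0.44 with lane in the model, and in lanes 5 and 6 only they were at −0.23 and 0.50 and ATP7A at 0.01. SELENOP ran from −0.60 to 0.03 with 1 library left out. Without MSC 3, 1 member, SOD2, had an unadjusted p under 0.05, with an adjusted p of 0.784 from limma. The cause of these turns was not tested.

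With 1 library left out, the difference in the SOD2 share ran from −26.2 to −18.3 percentage points. Its adjusted permutation p did not pass in any alternative, but each of these sets has fewer splits, which raises the smallest possible p. With only the lanes that held both groups, the groups were of equal size and no split could have passed. The failure to pass in these smaller sets therefore decides nothing about the SOD2 share. The NOX4 to GP91-PHOX log2 ratio difference ran from 0.35 to 1.52 over its 14 alternatives. Depth limits CYBA in MSC 2 (49 reads) and SOD3 in MSC 3 (55 reads) most.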
